A study of Homo sapiens with 15 samples.

Results

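The loops described here joined a gene promoter to a distal site and were listed among the H3K27ac loops of LNCaP cells but not, at the same pair of anchors, among their H3K4me3 loops. A loop is a pair of 1 kb anchors. A pair was taken if it was among the 296326 H3K27ac loops and not among the 278491 H3K4me3 loops, if its anchors lay from 10 kb to below 1 Mb apart, and if exactly 1 anchor touched a promoter, taken as the start site of a protein-coding gene's canonical transcript with 2.5 kb upstream and downstream (Gencode release 44 on hg19). This gave 56022 of the 505995 different loops listed, at 12171 of 19863 promoters and with 41021 different distal anchors. They are called H3K27ac-only distal loops here.

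LNCaP is an established human prostate cancer cell line that responds to androgen. The cells were kept in hormone-depleted medium and then given ethanol vehicle (0 m) or the androgen dihydrotestosterone (DHT) at 10 nM. Cells with DHT were collected after 30 m and 4 h as well as after 16 h and 72 h. HiChIP, which sequences pairs of DNA ends that lay close together on chromatin carrying a chosen histone mark, was done for H3K27ac in 2 samples per time point and for H3K4me3 in 1. All groups share the cell line and the medium, and every change below is against the same 0 m value of its mark.

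The unit is contact, the read pairs joining the 5 kb bins of a loop's anchors, which the authors scaled across time within each mark. Each mark has a single value for a loop at a time point, and the tables do not say whether the read pairs of 1 or of both H3K27ac samples entered it. There is therefore no replicate error and no test. The 95% intervals of changes (exact, from recovered read pairs) cover counting error only. Those of shares are exact binomial intervals over loops, anchors or promoters. They take these as independent, although loops share anchors, and so are a description only. Over all loops the tables held from 2475168 (0 m) to 4308555 (30 m) H3K27ac read pairs. For H3K4me3 they held from 2153262 (30 m) to 10675614 (4 h), so the 4 h H3K4me3 table is far deeper than the others. An H3K27ac-only distal loop had a median of 3 to 5 H3K27ac read pairs per time point, which makes a single weak loop uninformative.

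The name "H3K27ac-only" holds for the list of loops and not for the signal. At 0 m, 17.5% of the 56022 loops (interval 17.2 to 17.8%) had no H3K4me3 read pair, and the others had at least 1. This share was 22.0, 3.02, 10.6 and 16.8% from 30 m to 72 h, highest in the table with fewest H3K4me3 read pairs and lowest in the one with most. A loop of the H3K4me3 list with both anchors within 1 bin lay beside 28341 of them (50.6%, interval 50.2 to 51.0%). Of all H3K4me3 read pairs in loops, 12.1% fell in the H3K27ac-only distal loops at 0 m, against 10.1% of all H3K27ac read pairs. The ratio of those shares was 1.19, 1.11, 1.23, 1.31 and 1.28 from 0 m to 72 h. It lay between 1.38 and 1.63 in promoter to distal loops of both lists, between 2.23 and 2.82 in those of the H3K4me3 list only, and between 0.18 and 0.33 in H3K27ac-only loops with no promoter. Since the lists were called from the read pairs of each mark over all time points, these levels describe the choice of loops. Most H3K27ac-only distal loops therefore held read pairs of both marks and did not enter the H3K4me3 list.

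H3K27ac marks active promoters and active enhancers, and H3K4me3 marks mainly the promoters of active genes. A loop from a promoter to a distal site brings a gene near regulatory DNA that can lie in or beyond other genes. In prostate cells androgens raise or lower the transcription of many genes. They act through androgen response elements in DNA, which lie mostly at distal sites that also hold forkhead proteins such as FOXA1.

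To show what the distal ends of the loops can contain, 7 of 8 stretches chosen from the GRCh37 reference are given, each from the 5 kb bin of the distal anchor of a loop of a gene described below. Each is centred on the best match to the androgen response element (AGAACA, any 3 letters, TGTTCT), with at most 2 of its 12 fixed letters changed and no overlap with an exon. Capitals mark the 15 bases of the match. They lie at chr4:38623589-38623643 (KLF3 loop, in an intron of KLF3-AS1), chr17:46826538-46826592 (PRAC1 loop, in no gene), chr20:45964328-45964382 (ZMYND8 loop, in an intron of ZMYND8) and chr16:81027683-81027737 (loop of CENPN and CMC2, in an intron of CMC2). The others lie at chr12:115352311-115352365 (TBX3 loop, in no gene), chr12:49473938-49473992 (KMT2D loop, in no gene) and chr4:69433363-69433417 (UGT2B15 loop, in an intron of UGT2B17). All are on the + strand. The KLF3 match has 1 letter changed and the other matches have 2.
KLF3: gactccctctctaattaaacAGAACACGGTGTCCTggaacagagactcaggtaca
PRAC1: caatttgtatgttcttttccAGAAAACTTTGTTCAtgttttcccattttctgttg
ZMYND8: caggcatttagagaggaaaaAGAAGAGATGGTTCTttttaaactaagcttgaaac
CENPN: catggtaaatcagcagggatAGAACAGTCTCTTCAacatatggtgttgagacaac
TBX3: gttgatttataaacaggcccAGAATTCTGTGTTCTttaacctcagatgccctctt
KMT2D: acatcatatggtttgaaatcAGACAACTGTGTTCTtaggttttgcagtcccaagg
UGT2B15: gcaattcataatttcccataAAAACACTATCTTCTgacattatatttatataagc

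Such a match is common, here as in other loops, and the differences between groups of loops were not tested. With up to 2 letters changed, on either strand, it was in the 5 kb bin of 29.3% of the 41021 distal anchors of H3K27ac-only loops (interval 28.9 to 29.8%). It was in 30.0% of the distal anchors of loops of both lists (interval 29.4 to 30.5%). For the H3K4me3 list only, the share was 30.4% (interval 30.1 to 30.7%). It was in 31.6% of the anchors of H3K27ac-only loops with no promoter and in 30.3% of all anchors. With at most 1 letter changed the share was 2.54%. The forkhead letters TGTTTAC were in 52.3% of the distal anchors, against 53.9% for loops of both lists and 52.7% for the H3K4me3 list only. The CTCF letters (CCA, 2 letters, AG, 2 letters, GGC) were in 16.3%, against 18.4% and 14.8%. CTCF is the protein that holds many loop ends. The letters of AP-1 (TGANTCA) were in 77.9% and those of GATA factors (AGATAA) in 93.0%, so in bins of this size short motifs say little. A match is a description of the letters and not a site of binding.

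Mean H3K27ac contact of the H3K27ac-only distal loops was 1.31 in vehicle, 1.47 after 30 m of DHT, then 1.29 (4 h), 1.34 (16 h) and 1.39 (72 h). On the log2 scale the changes from 0 m were 0.17 (interval 0.16 to 0.17), −0.03 (−0.03 to −0.02), 0.03 (0.03 to 0.04) and 0.08 (0.07 to 0.09). Contact was thus highest 30 m after DHT and at 4 h was back just below its 0 m value. Over all loops the changes were 0.09, 0.07, 0.25 and 0.17, so relative to all loops the H3K27ac-only distal loops were at 0.07, −0.09, −0.21 and −0.09. With every table scaled to the same total, which gives those relative values, the change is still above 0 at 30 m and turns below 0 at 16 h and 72 h. At 16 h the direction also turned without the 1% of loops of highest contact (−0.01). It turned as well for the median ratio over promoters, each weighing the same (−0.06), in place of a ratio of means.

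Promoter to distal loops of both lists had 0.19, −0.06, 0.25 and 0.20 over the same times, and those of the H3K4me3 list only had 0.13, −0.03, −0.10 and −0.01. At 16 h, then, the H3K27ac-only distal loops lay between the other promoter loops. Against loops of the same class of length, contact and GC content, classes chosen after the values were seen, their 16 h change was higher than that of both lists in 3 of 76 classes (median difference −0.14). Against loops of the H3K4me3 list only it was higher in 58 of 73 classes (median difference 0.07). The H3K27ac list was called from H3K27ac read pairs of all time points, 16 h among them. The classes of contact also hold the 16 h value. These comparisons between lists are therefore a description only. H3K27ac-only loops with no promoter had −0.30 at 30 m, against 0.17 for those from a promoter to a distal site.

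The H3K4me3 contact of the same loops was 1.56, 1.55, 1.76, 1.62 and 1.44 from 0 m to 72 h. The log2 changes were −0.01 (interval −0.02 to −0.01), 0.17 (0.17 to 0.18), 0.05 (0.04 to 0.06) and −0.11 (−0.12 to −0.11). H3K4me3 contact was highest at 4 h and H3K27ac contact at 30 m, each in the table of its mark with most read pairs, and the 0 m table has the fewest for H3K27ac. The part of depth in this was not tested. All loops had 0.02, 0.22, 0.14 and −0.13, which leaves −0.04, −0.05, −0.08 and 0.01 for the H3K27ac-only distal loops relative to them. On equal totals the signs at 4 h, 16 h and 72 h are therefore turned, and the H3K4me3 course is mostly that of all loops. The H3K4me3 sign at 30 m is turned among loops of middle GC content (0.04).

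**Figure D1:**
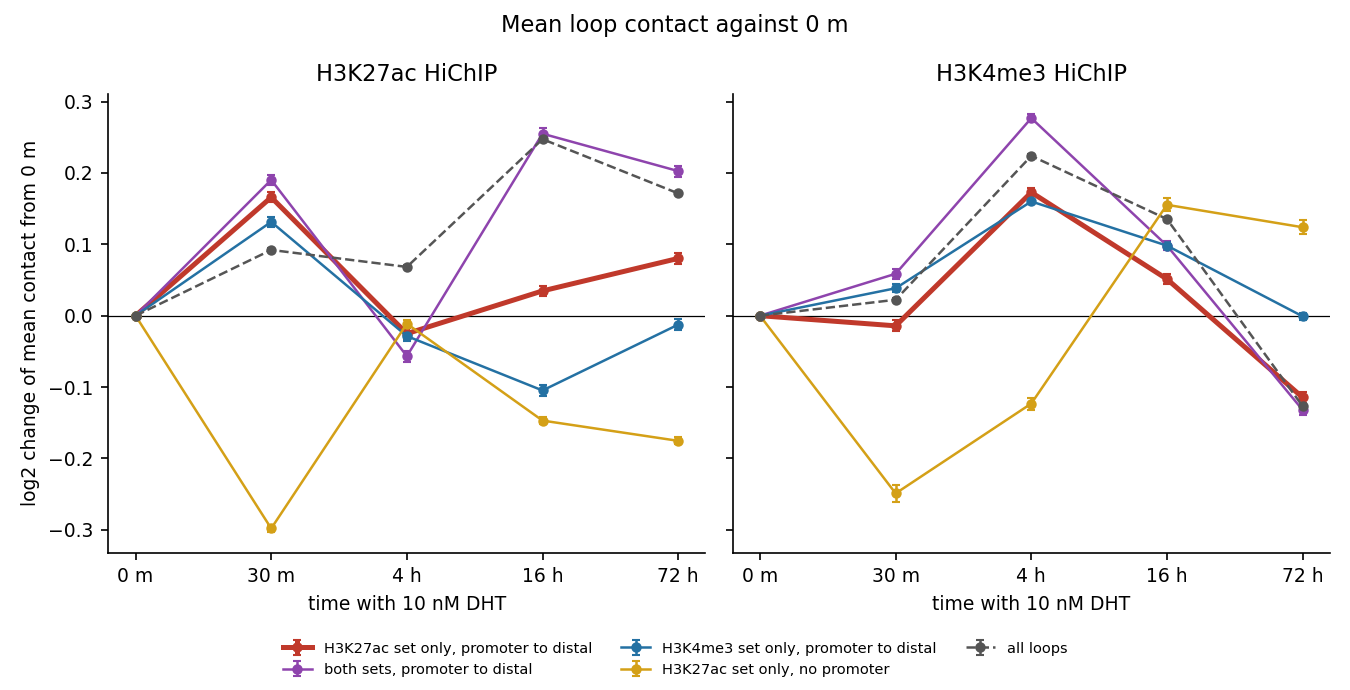
Log2 change of mean contact from 0 m (vertical axis) by time with DHT (horizontal axis) for H3K27ac (left) and H3K4me3 (right), as deposited. Lines are groups of loops and bars are 95% counting intervals; the H3K27ac-only distal loops (thick red) reach 0.17 at 30 m and lie below all loops (dashed) from 4 h in H3K27ac.

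The loops were weak and uneven. The mean H3K27ac contact over the time points had a median of 0.83, quartiles of 0.57 and 1.42, and a 99th percentile of 8.71. The corresponding H3K4me3 values were 0.83, 0.36, 1.77 and 12.3. At the length limits, the 1515 loops of 10 kb had a mean H3K27ac contact of 5.50, and the 2407 loops of 5 kb that were left out had 14.6. The 27 loops of the last length step below 1 Mb had 0.53, as did the 18 loops of 1 Mb that were left out.

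The changes differed with the base content and length of the loops, in classes chosen after the values were seen. In 5 classes of the mean GC content of both anchor bins, from 40.3% to 55.3%, the 30 m H3K27ac change went from −0.21 to 0.35, rising in each class. The 16 h changes were −0.07, 0.05, 0.10, 0.07 and 0.02 in the same order, so the middle class had the highest. In H3K4me3 the order was the opposite at 30 m, from 0.12 in the class of lowest GC content to −0.17 in the class of highest. By length, the 30 m H3K27ac change was 0.37 for loops from 10 to below 15 kb and −0.15 for loops from 500 kb. The 16 h change was 0.17 and −0.06 in those classes. GC content and length moved with the 30 m change, and their part in it was not tested.

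**Figure D2:**
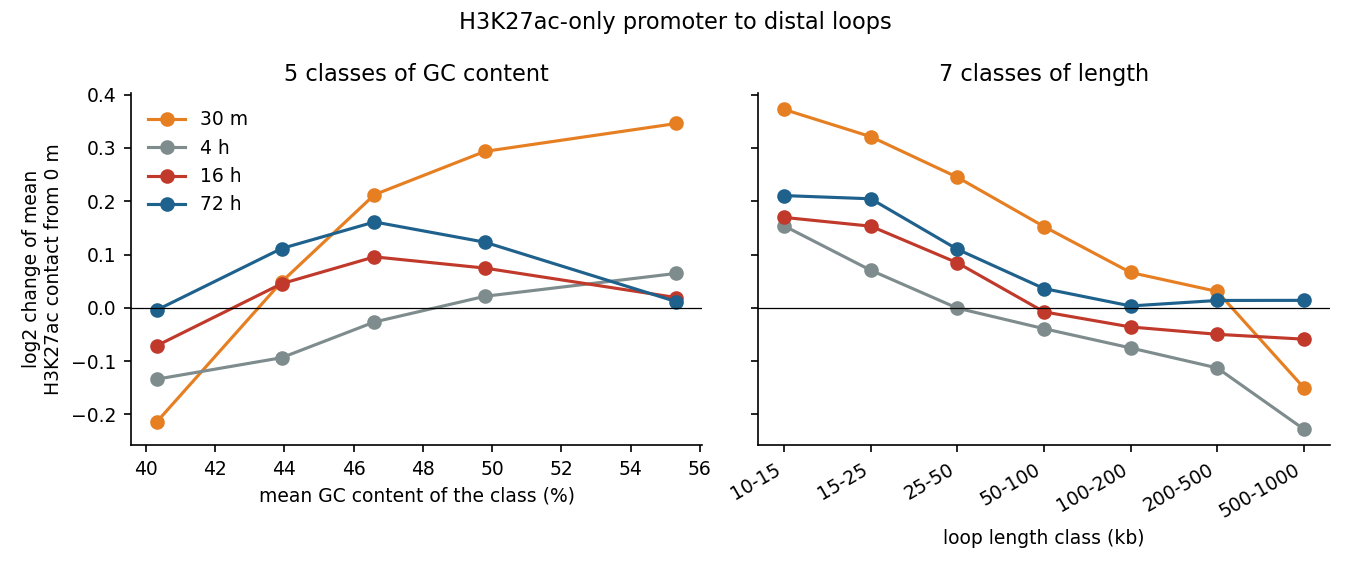
Log2 change of mean H3K27ac contact of the H3K27ac-only distal loops from 0 m (vertical axis), for 5 classes of GC content (left) and by class of length in kb (right), 1 line per time point. At 30 m the values go from −0.21 to 0.35 with GC content and from 0.37 to −0.15 with length.

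A single loop was called where its contact differed from 0 m by 2-fold or more and both tables together held at least 20 of its read pairs. At 30 m, 8333 of the 56022 loops reached that number for H3K27ac, and 1226 of them (14.7%) were higher and 278 (3.34%) lower. Among all loops 10.7% were higher and 6.02% lower. At 4 h, 351 of 6245 were higher (5.62%, against 7.02% of all loops) and 228 lower (3.65%, against 3.02%). At 16 h, 987 of 6499 were higher (15.2%, against 18.3%) and 366 lower (5.63%, against 5.9%). At 72 h, 808 of 5535 were higher (14.6%, against 15.4%) and 320 lower (5.78%, against 6.61%). At 30 m more of the H3K27ac-only distal loops were higher and fewer lower than among all loops, and at 4 h and 16 h fewer were higher. The 30 m shares were like those of the other promoter to distal loops, of which 13.4% (both lists) and 14.2% (H3K4me3 list only) were higher and 3.81% and 2.98% lower. The share higher among called loops was 81.5, 60.6, 72.9 and 71.6% at the 4 times, and 72.8, 50.2, 48.0 and 54.1% on equal totals. Among all loops this share was 64.1, 69.9, 75.6 and 70.0%, and 52.6, 61.5, 53.2 and 53.3% on equal totals. At 16 h and this minimum of read pairs, the 2 directions were thus nearly even once the totals were made equal (619 higher and 670 lower, or 48.0% higher, against 53.2% among all loops). With at least 50 read pairs, as deposited, fewer loops were lower. At 30 m, 222 of 1696 were higher (13.1%, against 9.43% of all loops) and 19 lower (1.12%, against 2.68%), and at 4 h 11 of 1033 (1.06%, against 3.3%) and 4 (0.39%, against 0.341%). At 16 h, 236 of 1272 were higher (18.6%, against 26.1%) and 24 lower (1.89%, against 1.38%), and at 72 h 155 of 920 (16.8%, against 19.9%) and 15 (1.63%, against 2.26%).

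For H3K4me3, 257 of 7299 loops were higher at 30 m (3.52%, against 3.15% of all loops) and 336 lower (4.6%, against 3.79%). At 4 h, 3351 of 22188 were higher (15.1%, against 15.2%) and 691 lower (3.11%, against 3.36%). At 16 h, 619 of 10908 were higher (5.67%, against 6.5%) and 330 lower (3.03%, against 2.21%). At 72 h, 172 of 7963 were higher (2.16%, against 2.4%) and 480 lower (6.03%, against 5.86%). These shares were near those of all loops at 4 h and 72 h, while at 30 m and 16 h more of the H3K27ac-only distal loops were lower, and at 16 h fewer were higher. On equal totals the share higher among called loops went from 82.9 to 64.8% at 4 h, from 65.2 to 43.0% at 16 h and from 26.4 to 44.8% at 72 h. Among all loops it went from 81.9 to 63.1%, from 74.7 to 53.2% and from 29.1 to 47.0% at those times.

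The loops called at 16 h can be followed in tables that the call did not use. Of the 987 higher at 16 h, 835 (84.6%, interval 82.2 to 86.8%) had a higher H3K27ac contact at 72 h than at 4 h. Of the 366 lower at 16 h, 97 (26.5%, interval 22.1 to 31.3%) did, and of all 6499 loops with enough read pairs, 60.1%. The log2 ratios of their summed contact at 72 h to that at 4 h were 0.78, −0.50 and 0.21. The same ratios of 30 m to 4 h were 0.54, −0.06 and 0.29. Without the 0 m table, the higher and lower loops thus lay apart at 72 h and, less far, at 30 m. H3K4me3 contact of the same loops, which the call did not use, had log2 changes at 16 h of 0.06 (interval 0.03 to 0.09) in the higher loops, −0.08 (−0.13 to −0.04) in the lower ones and 0.02 (0.01 to 0.03) in all 6499. This comparison was added after the values were seen.

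The strongest H3K27ac-only distal loop joined PRAC1, a gene expressed in prostate and lower gut, to chr17:46827001-46828000, 30 kb away. This site lies 21.4 kb from the start of HOXB13, the homeobox factor of the prostate, and past 2 promoters. Its H3K27ac contact was 73.2, 91.0, 74.6, 139 and 116 from 0 m to 72 h, from 249 to 657 read pairs. It was highest at 16 h, with a log2 change of 0.93 (interval 0.72 to 1.15). H3K4me3 contact was 22.6, 31.4, 25.9, 41.2 and 20.9, and it too was highest at 16 h (0.87, interval 0.49 to 1.26).

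ZMYND8, a reader of acetylated histones, was joined to a site in its own gene 25 kb downstream (chr20:45962001-45963000). H3K27ac contact there was 20.9, 38.7, 29.1, 62.4 and 50.8, a log2 change at 16 h of 1.58 (interval 1.2 to 1.98). H3K4me3 contact was 2.26, 2.05, 2.30, 5.03 and 2.20, with a change at 16 h of 1.16 (interval −0.03 to 2.51), and an H3K4me3-list loop lay within 1 bin. MBD6, of the methyl-CpG-binding domain family, had a loop of 10 kb to a site in DCTN2 with 21.2, 49.3, 36.5, 56.9 and 50.5. Its H3K27ac change at 16 h was 1.43 (interval 1.05 to 1.82), against −0.34 (−0.69 to 0.00) in H3K4me3. TOB1, which restrains cell division, had a loop of 80 kb with 28.2, 39.2, 28.2, 58.0 and 51.6 (1.04 at 16 h, interval 0.70 to 1.39).

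Among the 10 strongest loops the others moved less. IRF2BPL had a mean H3K27ac contact of 78.5 and a 16 h change of 0.58 (interval 0.35 to 0.82), and PWWP2B had 74.5 and 0.44 (0.19 to 0.68). BCL9L, a partner of beta-catenin in Wnt signalling, had 62.2 and 0.30 (0.04 to 0.56). CISD3, of an iron-sulfur protein of mitochondria, had 54.9 and the lowest change (−0.39, interval −0.67 to −0.11). U2AF2, a splicing factor, and the neighbours C20orf144 and ACTL10 had changes of 0.16 and 0.23 with intervals that include 0. Scaling to equal totals takes 0.25 from each of these values, which takes PRAC1, ZMYND8, MBD6 and TOB1 to lower values and leaves them above 0. It takes U2AF2 and the C20orf144 loop below 0.

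Among loops with at least 50 H3K27ac read pairs over 0 m and 16 h, IFIT1 had the highest change. IFIT1 is an interferon-induced gene, and the loop ended in its neighbour IFIT3, 60 kb away. H3K27ac contact was 0.59, 1.26, 1.07, 10.6 and 7.37, from 2, 7, 5, 50 and 28 read pairs. The log2 change of 4.17 has an interval of 2.25 to 7.26, since 0 m held 2 read pairs. KPNA7, of the importin alpha family, came next with 1.47, 4.86, 0.43, 12.3 and 13.9 (3.07, interval 1.76 to 4.74, 5 read pairs at 0 m).

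TFF1, a secreted trefoil peptide known as an oestrogen-induced gene, had a loop of 10 kb to a site in TMPRSS3 with 3.23, 11.3, 6.62, 22.1 and 21.1. Its change at 16 h was 2.77 (interval 1.87 to 3.82). KLF3, a zinc finger repressor, had a loop of 45 kb to chr4:38622001-38623000, beside the KLF3 sequence shown above. Its contact was 4.11, 6.84, 3.63, 25.3 and 19.2, so that 0 m, 30 m and 4 h were low and 16 h and 72 h high (2.62 at 16 h, interval 1.82 to 3.53). H3K4me3 contact at this loop was between 1.02 and 2.93, with a change at 16 h of 0.11 (interval −1.39 to 1.71).

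VPS13D, a lipid transfer protein, had 2.94, 9.90, 5.13, 14.6 and 14.7 in H3K27ac at a loop of 10 kb within its own gene. Its H3K4me3 contact was 12.1, 9.22, 7.61, 6.77 and 7.70, lower at every time with DHT, with intervals that include 0 at 30 m and 72 h. The other loops of highest change were those of AAMP and PNKD (2.45), GMPPB, an enzyme that makes GDP-mannose (2.41), and JADE2 (2.28). These 8 were picked for a high ratio of 16 h to 0 m, so their place against other times is a description only.

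Among the lowest changes at 16 h were those at the shared promoter of DDB1 and TKFC, at BCHE and at GPER1. DDB1, an adaptor of a ubiquitin ligase that acts in DNA repair, had 11.2, 5.04, 7.05, 3.18 and 5.00 at a loop of 35 kb (−1.81, interval −2.78 to −0.91). BCHE, butyrylcholinesterase, had 10.9, 2.34, 8.12, 3.40 and 3.42 at a loop of 115 kb (−1.68, interval −2.62 to −0.80), with low values at 30 m, 16 h and 72 h. Its H3K4me3 contact was at most 0.40. GPER1, a membrane receptor for oestrogen, had 11.2, 8.46, 8.12, 4.46 and 3.16 at a loop of 45 kb into C7orf50 (−1.32, interval −2.17 to −0.52).

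**Figure D3:**
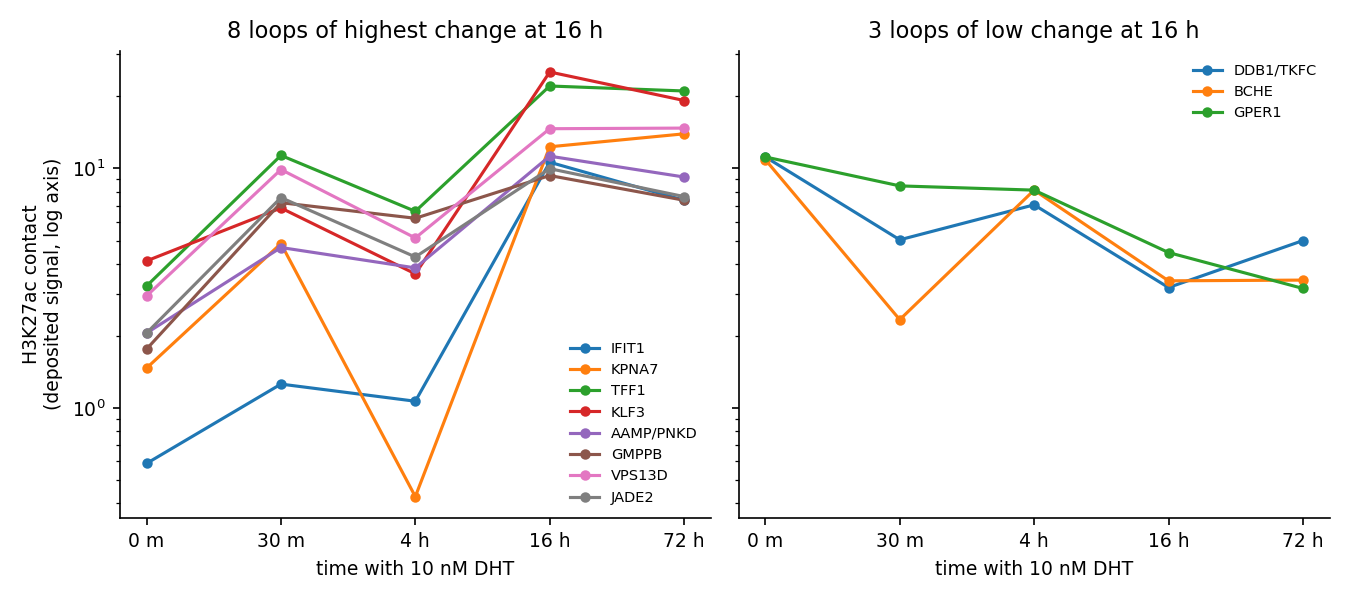
H3K27ac contact (vertical axis, log scale, deposited signal) by time with DHT (horizontal axis) of the 8 loops of highest (left) and 3 of low change at 16 h (right) among H3K27ac-only distal loops with at least 50 read pairs. Lines are single loops; the KLF3 loop goes from 4.11 to 25.3 and the GPER1 loop from 11.2 to 4.46 between 0 m and 16 h.

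The median loop was 160 kb long (quartiles 65 and 320 kb), and its distal anchor lay past a median of 1 other promoter. The distal anchor had its own promoter as the nearest one in 22.1% of the loops (interval 21.8 to 22.4%). This share was 64.8% for loops of 10 to 50 kb, 19.4% for 50 to 200 kb and 5.27% for 200 kb to 1 Mb. With the start sites of all transcripts in place of canonical ones it was 14.7% over all lengths. At 10 to 50 kb it was lower than in loops of both lists (71.0%) and of the H3K4me3 list only (75.6%). These differences were not tested. In 57.8% of the loops the distal anchor lay in a protein-coding gene, and in 13.0% in the gene of the promoter itself. Among the 48020 loops with 1 gene at the promoter anchor, downstream and upstream sides were nearly even, with 50.8% downstream.

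**Figure D4:**
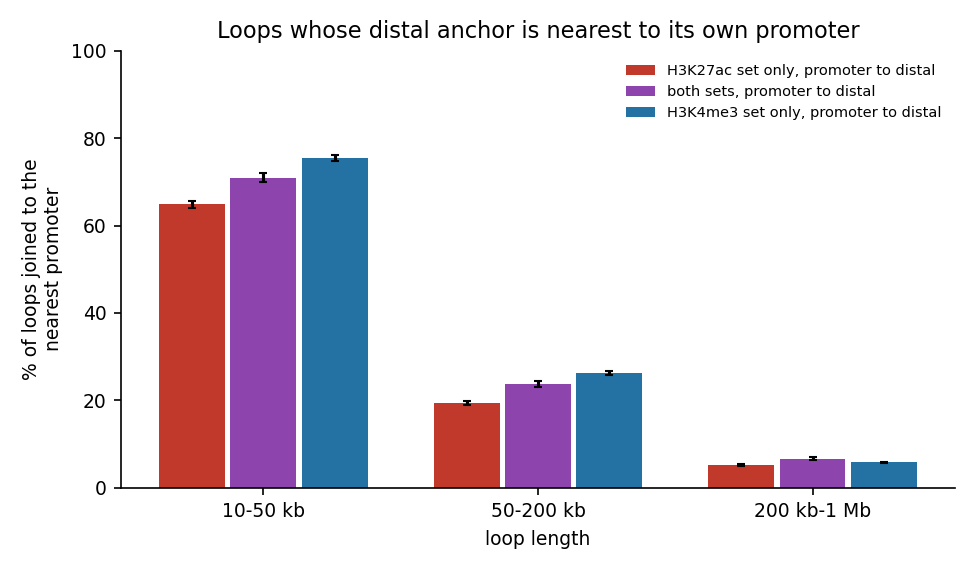
Percent of loops whose distal anchor has its own promoter as the nearest one (vertical axis), by loop length (horizontal axis), for H3K27ac-only distal loops and the other promoter to distal loops. Bars carry exact 95% intervals; the H3K27ac-only loops are at 64.8, 19.4 and 5.27%.

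A promoter had a median of 4 H3K27ac-only distal loops (quartiles 2 and 7), and 20.8% of the 12171 promoters had 1. Most distal anchors, 77.6%, belonged to 1 such loop. The most loops, 79, were at ZNF608, a zinc finger gene, with a summed H3K27ac contact of 119, 65.3, 78.8, 102 and 116. Its log2 change at 16 h was −0.22 (interval −0.41 to −0.02), and that of its H3K4me3 contact 0.57 (0.09 to 1.07). ZMYND8 came next with 56 loops and 123, 167, 129, 209 and 181, a change of 0.76 (interval 0.60 to 0.93). PRAC1 had 49 loops and 193, 228, 191, 265 and 252 (0.46, interval 0.32 to 0.60).

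So the promoters with most loops did not move in 1 direction. NAALADL2 had 49 loops and 88.4, 30.8, 83.1, 57.5 and 51.3 (−0.62, interval −0.86 to −0.38), with its lowest contact at 30 m, while its H3K4me3 contact changed by 0.75 (0.26 to 1.27). HGD, an enzyme of tyrosine breakdown, had 47 loops and 85.8, 37.6, 61.3, 61.6 and 53.4 (−0.48, interval −0.72 to −0.24), also lowest at 30 m. MTARC1 and the gene that shares its promoter had 52 loops (−0.10, interval −0.36 to 0.15), and SLC26A1, a sulfate transporter, had 48 (0.05, interval −0.19 to 0.30).

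At the distal end, 1 anchor could serve many genes. The anchor chr11:65187001-65188000, in no protein-coding gene and next to the long noncoding RNA gene NEAT1, had 27 loops to the promoters of 35 genes. Their summed H3K27ac contact was 42.0, 41.9, 38.7, 47.3 and 43.4, nearly level over time (0.17 at 16 h, interval −0.14 to 0.49). RELA, a subunit of NF-kappaB, and the acetyltransferase KAT5 are among the genes. An anchor at chr19:58317001-58318000 reached 24 genes, most of them zinc finger genes (0.37, interval −0.03 to 0.78). An anchor at chr17:39057001-39058000 reached 21 genes, of which 20 encode keratins or keratin-associated proteins, with 19.98, 26.5, 20.3, 29.7 and 40.8. This keratin anchor had a change of 0.57 at 16 h (interval 0.14 to 1.01). Anchors at chr19:2952001-2953000 and chr19:12897001-12898000 reached 20 genes each, with changes of 0.34 and −0.14 whose intervals include 0.

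The loop of highest H3K27ac contact at a promoter was an H3K27ac-only distal loop in 29.9% of 2643 promoters at 0 m (interval 28.1 to 31.7%), 33.1% of 5833 at 30 m (31.9 to 34.4%) and 32.9% of 4344 at 4 h (31.5 to 34.3%). At 16 h and 72 h it was so in 30.7% of 4750 (29.4 to 32.0%) and 31.5% of 3844 (30.0 to 33.0%). These promoters had at least 5 loops and at least 20 read pairs in the strongest one. H3K27ac-only distal loops made up 31.6, 28.4, 29.8, 29.3 and 29.8% of the loops at the same promoters, and the rest include loops of the H3K4me3 list only. Since H3K27ac read pairs chose the first and not the second, these shares are a description and nothing was read from their difference. With at least 50 read pairs asked for, the shares led were 23.4, 31.3, 28.1, 23.7 and 26.4%. Of 2521 promoters that could be followed from 0 m to 16 h, 77.4% had the same strongest loop. Where it was an H3K27ac-only distal loop at 0 m, 553 of 753 (73.4%) kept it.

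A small group of 1005 loops (1.79%) had a promoter anchor with no loop of the H3K4me3 list at all. These come nearest to what the name H3K27ac-only says. Of them, 48.6% had no H3K4me3 read pair at 0 m, and mean H3K4me3 contact over the time points was 0.34, against 1.61 in the other H3K27ac-only distal loops. Their H3K27ac changes were −0.24, 0.09, −0.24 and −0.18, against 0.17, −0.03, 0.04 and 0.08 in the others. Their H3K4me3 changes were −0.40, −0.30, −0.01 and 0.05, against −0.01, 0.17, 0.05 and −0.12. Their H3K27ac contact was thus below 0 m at 30 m, 16 h and 72 h, on either scaling, while at 30 m the other loops were above it. Low values at those times were not particular to them, since H3K27ac-only loops with no promoter had −0.30, −0.01, −0.15 and −0.18. The 1005 loops were at 537 promoters. Taken by gene, 542 promoters with H3K27ac-only distal loops had no loop of the H3K4me3 list, and 36 of these had 5 or more H3K27ac-only distal loops. IL1F10, a cytokine gene of the interleukin family, had 17 such loops with a summed H3K27ac contact of 41.1, 23.0, 35, 23.8 and 21.8 (−0.79, interval −1.16 to −0.42). OR51D1, an olfactory receptor gene, had 16 with 66.1, 23.0, 54.9, 23.4 and 20.8 (−1.50, interval −1.84 to −1.17). RDH12, a retinol dehydrogenase, had 12 with 42.0, 20.7, 30.8, 22.7 and 10.3 (−0.89, interval −1.26 to −0.52). Not all of these promoters were low, since KYNU, an enzyme of tryptophan breakdown, had 13 with a change of 0.17 (interval −0.39 to 0.74). TBX4, a T-box factor, had 7 with 1.01 (interval 0.30 to 1.76) and ASCL5 had 8 with 0.75 (0.09 to 1.44), both named after their values were seen.

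The loops without an H3K4me3-list loop within 1 bin, 27681 in all, had an H3K27ac change of −0.03 at 16 h, against 0.09 in the 28341 with one. At 30 m they had 0.17 and 0.16, so the 2 kinds lay apart at 16 h and not at 30 m.

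For lists of genes, the H3K27ac contact of all H3K27ac-only distal loops of a promoter was summed and compared at 16 h with 0 m. Over the 7793 promoters with at least 20 read pairs, 4.62% were higher by 2-fold or more and 5.3% lower. Their median log2 change was −0.02, and −0.27 on equal totals. Of 32 androgen-induced genes, 25 had such loops and 22 could be measured. Of these, 2 were higher, 1 was lower, and the median change was 0.21, or −0.04 on equal totals. KLK3 and KLK2, the best known of these genes in the prostate, had no H3K27ac-only distal loop.

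FKBP5, a co-chaperone of steroid receptors, had 3 loops and a summed contact of 7.64, 16.0, 11.5, 19.5 and 17.9 (1.35, interval 0.71 to 2.04). It was above 0 m at every time with DHT. AZGP1, a secreted glycoprotein, had 1 loop with 0.88, 3.06, 3.42, 3.82 and 2.37 (2.12, interval 0.34 to 4.52, 3 read pairs at 0 m). TMPRSS2, a serine protease, was the lower one, with 6 loops and 8.23, 4.32, 3.85, 2.34 and 4.21 (−1.82, interval −2.97 to −0.77). Its H3K4me3 contact was 2.54, 1.71, 2.61, 7.15 and 2.75, and so was higher at 16 h (1.49, interval 0.42 to 2.73). On equal totals SLC45A3 also passed 2-fold lower, which makes 2 higher and 2 lower of 22, against 2.31% higher and 11.3% lower over all 7793 promoters on that scaling.

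The androgen-induced genes with most contact did not pass 2-fold. CAMKK2, a calcium-dependent kinase, had 16 loops with 39.1, 43.0, 46.8, 45.4 and 33.4 (0.22, interval −0.10 to 0.54). CENPN, a centromere protein, had 20 loops (0.57, interval 0.17 to 0.98). The loop of the CENPN sequence shown above, of 15 kb, had 8.23, 13.5, 8.12, 13.6 and 12.9 (0.72, interval 0.06 to 1.42). TPD52 had 15 loops (0.20, interval −0.22 to 0.63). KLK4, a kallikrein protease, had 4 loops with 17, 21.2, 24.6, 20.6 and 10.0 (0.27, interval −0.21 to 0.77). Its strongest loop reached 65 kb, to chr19:51347001-51348000, a site 10.7 kb from the start of KLK3. That loop had 7.35, 10.6, 8.76, 12.5 and 4.47, a change of 0.77 at 16 h (interval 0.07 to 1.51), and its H3K4me3 contact changed by 1.13 (0.27 to 2.08). CAMKK2 and KLK4 were below their 0 m contact at 72 h. CAMKK2 had 133 read pairs at 0 m and 127 at 72 h, and KLK4 had 58 and 38. No interval is given for these 72 h differences, and that of CAMKK2 rests on nearly equal counts.

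Of 8 androgen-repressed genes, 5 had such loops and 4 could be measured, with a median of −0.43 and 1 lower. LRRN1, a membrane protein with leucine-rich repeats, was the lower one, with 5.58, 1.44, 3.63, 1.49 and 1.32 (−1.91, interval −3.40 to −0.60). UGT2B15, an enzyme that inactivates DHT, had 36 loops with 54.4, 32.2, 53.0, 39.7 and 32.4 (−0.45, interval −0.75 to −0.15). Its strongest loop alone, of 105 kb to a site in UGT2B17, went the other way with 1.51 (interval 0.67 to 2.43). UGT2B15 and UGT2B17 are closely similar in sequence, so that read pairs between them may be uncertain. The authors kept uniquely mapped read pairs only, and mapping was not tested here. CAMK2N1, an inhibitor of a calcium-dependent kinase, had −0.40 (interval −1.04 to 0.23). MET, a growth factor receptor, had 1 loop with too few read pairs to measure.

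Of 12 luminal transcription factors, 11 had such loops and 8 could be measured. None was past 2-fold in either direction, against 4.62% and 5.3% of all promoters, and their median was 0.40, or 0.16 on equal totals. ELF3, an epithelial factor of the ETS family, had 51.4, 62.1, 48.7, 71.8 and 63.7 (0.48, interval 0.21 to 0.75). Its strongest loop, of 110 kb, had 19.7, 22.5, 21.2, 39.1 and 25.8 (0.99, interval 0.58 to 1.41). XBP1, a factor of the unfolded protein response, had 34 loops with 43.5, 61.4, 41.0, 62.6 and 80.3 (0.53, interval 0.24 to 0.82). TBX3 had 16 loops with 37.9, 50.6, 35.5, 52.9 and 57.1 (0.48, interval 0.17 to 0.80), and a loop of 230 kb to the sequence shown above changed by 1.58 (0.72 to 2.54). GRHL2, an epithelial factor, had 27 loops and was level, from 48.7 to 52.6. CREB3L4 had 17 loops (0.33, interval −0.08 to 0.75). The 3 others measured are named after their values were seen. SPDEF, an ETS factor of the prostate, had 23.5, 27.4, 29.7, 23.8 and 16.6 (0.02, interval −0.41 to 0.45), FOXA1 had 22.9, 16.9, 19, 31.8 and 21.3 (0.47, interval 0.07 to 0.89), and EHF had 9.11, 4.68, 9.61, 8.28 and 8.95 (−0.14, interval −0.86 to 0.59).

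Of 18 transcriptional coregulators, 17 had such loops and 13 could be measured, with a median of −0.02, or −0.27 on equal totals, the values of all promoters. NCOA1, a coactivator, was lower by 2-fold with 12 read pairs at 0 m and 8 at 16 h, and its interval includes 0 (−1.05, interval −2.55 to 0.36). NCOR1, a corepressor, had 30.0, 20.7, 29.5, 19.3 and 14.5 (−0.63, interval −1.06 to −0.21), low at 30 m, 16 h and 72 h. MED1, of the Mediator complex, had 21.5, 31.5, 17.7, 17.4 and 23.7 (−0.30, interval −0.77 to 0.17), highest at 30 m. EP300, an acetyltransferase that makes H3K27ac, had 0.03 (interval −0.42 to 0.49), and KMT2D, a methyltransferase of H3K4 at enhancers, had 0.18 (−0.43 to 0.79). The KMT2D loop of the sequence shown above, of 20 kb, had 5.88, 8.28, 7.48, 6.16 and 5.53 (0.07, interval −0.80 to 0.97). SMARCA4, an ATPase that moves nucleosomes, had −0.02 (interval −0.59 to 0.55).

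Of 77 genes of cytosolic ribosomal proteins, 73 had such loops and 61 could be measured, with a median of −0.27, or −0.51 on equal totals. Of these, 1 was higher and 3 lower, a share no larger than the 4.62% and 5.3% of all promoters. RPL18 was higher (1.15, interval 0.22 to 2.18), and RPS21 (−1.39), RPS29 (−1.32) and RPL12 (−1.05, interval −1.60 to −0.52) were lower. On equal totals 5 were lower and none higher, against 11.3% lower and 2.31% higher over all 7793 promoters. The ribosomal genes with most contact were RPL7 (32.9 over the time points on average), RPS6 (30.0), RPL30 (28.9), RPS28 (27.4) and RPL3 (26.3). Their changes ran from −0.72 (RPS28, interval −1.13 to −0.32) to 0.75 (RPL30, interval 0.33 to 1.19).

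**Figure D5:**
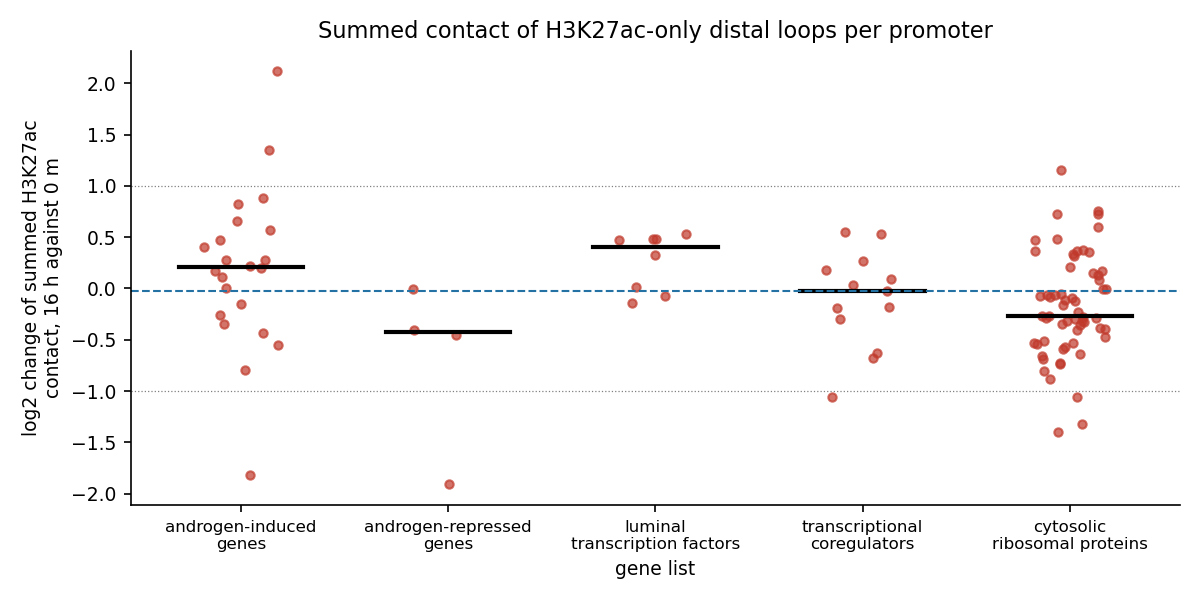
Log2 change from 0 m to 16 h of the summed H3K27ac contact of H3K27ac-only distal loops (vertical axis, as deposited) for each measured gene of 5 lists (horizontal axis). Points are genes, bars are list medians, the dashed line is the median of all promoters (−0.02) and dotted lines mark 2-fold; on equal totals every value is lower by 0.25, which takes the median of the androgen-induced genes from 0.21 to −0.04.

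Over all genes 12171 of 19863 promoters had H3K27ac-only distal loops, and the short lists of cell type markers were not tested against them. Of 12 luminal prostate markers, 10 had H3K27ac-only distal loops, all but KLK2 and KLK3. STEAP2 had 36 loops with 56.4, 36.3, 54.3, 41.8 and 42.9, KRT18 had 15 with 41.7, 52.2, 49.1, 44.8 and 41.6, and FOLH1 had 17 with 44.7, 25, 31.8, 39.7 and 33.2. Of the 4 basal markers 1 had such loops (KRT15), of 4 neuroendocrine markers none, of 4 immune markers 1 (CD3E), of 3 endothelial markers none (2 are in the annotation), and of 3 fibroblast markers 1 (COL1A1). The KRT15 loop belongs to the keratin anchor described above.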

How the data were processed

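LNCaP cells were profiled by HiChIP for H3K27ac and for H3K4me3 at 5 time points. The authors trimmed reads with Trim Galore 0.5.0, aligned them to hg19 and filtered pairs with HiC-Pro 3.1.0, and called loops in 5 kb bins on the merged time points of a mark. The deposited values are a signal, the contact of a bin pair which the authors scaled by TMM across time within each mark. Of the values of each of the 10 tables, 100% were whole multiples of 1 value (tolerance 1e-06 read pairs), so read pairs were recovered by division. Changes are log2 ratios of mean contact, with exact conditional binomial intervals. Promoters came from Gencode release 44. Python 3.11.15, numpy 2.4.6, pandas 2.3.3, scipy 1.17.1 and matplotlib 3.10.9 were used, and recovery, intervals, calls and overlaps were checked on simulated data. The loops named are the 10 of highest mean H3K27ac contact, and the 8 of highest and 4 of lowest 16 h change among those with at least 50 read pairs. Also named are the 8 promoters with most loops, the 5 genes of most contact of each list, and the 5 distal anchors that reach most promoters. A few that meet these rules are not described. The alternatives are equal totals, other promoter windows, lengths, read pair minimums and folds. The loops and gene lists were chosen with earlier results of these data known.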

Additional observations from a re-analysis of the deposited data

Results flagged for a closer look

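The VPS13D loop of 10 kb had opposite changes in the marks at 16 h, with a log2 change of 2.32 in H3K27ac and −0.84 in H3K4me3. The difference was not tested, since there is 1 value per mark and time point. It came to attention because the marks moved in opposite directions with counting intervals that exclude 0. For summed contact at promoters, the same held at TMPRSS2 (−1.82 in H3K27ac, 1.49 in H3K4me3), ZNF608 (−0.22 and 0.57) and NAALADL2 (−0.62 and 0.75), and these differences were not tested either.

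At 30 m the H3K27ac contact of H3K27ac-only loops changed by 0.17 where they ran from a promoter to a distal site and by −0.30 where they had no promoter. The groups moved in opposite directions, and the difference was not tested. GC content and loop length moved with the 30 m change, and their part in the difference was not tested.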

How the results depend on the processing

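No paired analysis was possible because the tables carry 1 value per time point and no replicate number, and no result comes from a test. In 159 values over 31 results, 48 lay within the main value's interval or within 1.5 times a main share. A further 101 moved, and 10, all of them changes of contact, turned sign. Shares, lengths and ratios have no sign to turn. Intervals over all read pairs of the loops are narrow, so small moves count. Depth limits single loops, since the median loop had 3 to 5 H3K27ac read pairs, and the 4 h H3K4me3 table is deeper than the rest. Unless stated, the cause was not tested.

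Log2 changes of mean contact on equal totals were 0.074, −0.093, −0.21 and −0.091 for H3K27ac from 30 m to 72 h and −0.037, −0.051, −0.084 and 0.012 for H3K4me3. The signs turned at 16 h and 72 h in H3K27ac and at 4 h, 16 h and 72 h in H3K4me3, by the construction of that scaling. Without an H3K4me3-list loop within 1 bin, H3K27ac had −0.014, −0.034 (turned) and 0.039 from 4 h, and H3K4me3 −0.060, 0.13 and 0.023 to 16 h. With anchors within 1 kb of a start site, H3K27ac had 0.20, −0.034, 0.056 and 0.100, and H3K4me3 0.19, 0.039 and −0.13 from 4 h. At 20 kb or more, H3K27ac had 0.12, −0.060, 0.0036 and 0.049, and H3K4me3 0.18 at 4 h and −0.086 at 72 h. At a mean H3K27ac contact of 1 or more, H3K27ac had 0.22, −0.010, 0.11 and 0.13, and H3K4me3 0.16, 0.029 and −0.15 from 4 h. Without the 1% of highest contact, H3K27ac had 0.14 at 30 m, −0.010 (turned) at 16 h and 0.051 at 72 h, and H3K4me3 −0.097 at 72 h. As the median ratio over promoters, each weighing the same, H3K27ac had 0.15, −0.00030, −0.065 (turned) and 0.023, and H3K4me3 −0.046, 0.16, 0.073 and −0.054. In the middle GC class, chosen after seeing the data, H3K27ac had 0.21, 0.096 and 0.16 (30 m, 16 h, 72 h) and H3K4me3 0.040 (turned), 0.23, 0.093 and −0.075. Against 4 h, also chosen after seeing the data, H3K27ac had 0.060 and 0.11 at 16 h and 72 h, and H3K4me3 −0.12 (turned) and −0.29.

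For loops past 2-fold in H3K27ac, a threshold of 1.5-fold gave by construction more, with 33.5, 17.5, 31.3 and 29.2% higher and 9.10, 14.0, 14.7 and 13.5% lower from 30 m to 72 h. At 50 read pairs or more, 1.12, 0.39, 1.89 and 1.63% were lower and 1.06% higher at 4 h. On equal totals 9.52% were higher and 10.3% lower at 16 h, and 8.69% lower at 72 h. Among all loops on that scaling, 7819 of 67698 were higher and 6887 lower at 16 h, and 5634 of 59479 lower at 72 h.

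The ratio of the shares of H3K4me3 and H3K27ac is the same on equal totals by construction. It was 1.10, 0.99, 1.09, 1.24 and 1.22 without an H3K4me3-list loop within 1 bin, and so passed below 1 at 30 m. It was 1.33, 1.2, 1.39, 1.42 and 1.39 with anchors within 1 kb, and 1.10, 1.05, 1.17, 1.23 and 1.23 at 20 kb or more. The distal anchor had its own promoter nearest in 14.7% with all transcripts (median length 150 kb), 21.5% without an H3K4me3-list loop (145 kb) and 19.7% with anchors within 1 kb (165 kb). The strongest loop was an H3K27ac-only distal loop in 23.4, 31.3, 28.1, 23.7 and 26.4% of promoters at 50 read pairs or more, and in 25.8, 30.5, 28.6, 27.7 and 26.7% at 20 kb or more. In the 1 kb anchor the androgen response element was in 6.60%, forkhead letters in 14.4% and CTCF letters in 3.49%, by construction fewer than in 5 kb. At a mean H3K27ac contact of 2 or more these were 27.4, 49.98 and 17.96%. With at most 1 letter changed the element was in 2.54%.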

Other observations

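Several interferon-induced genes had high late H3K27ac contact at their H3K27ac-only distal loops. This list of genes was made after the IFIT1 values were seen, and so it is a description only. RSAD2, which blocks the replication of many viruses, had 2 such loops with a summed contact of 3.23, 4.32, 1.496, 15.3 and 20.3 from 0 m to 72 h (2.24 on the log2 scale at 16 h, interval 1.32 to 3.31). IFIT1 had 6 with 5.00, 3.96, 3.42, 21.0 and 18.9 (2.07, interval 1.32 to 2.91). This sum holds the loop picked for its change, with 10.6 of the 16 h contact, and the other 5 loops had 4.41, 2.70, 2.35, 10.4 and 11.6 (1.24, interval 0.38 to 2.18). IFIT2 had 2 with 2.06, 2.34, 2.35, 8.28 and 6.58 (2.01, interval 0.83 to 3.41). OAS1, a sensor of double-stranded RNA, had 3 with 1.76, 2.16, 1.496, 6.37 and 6.32 (1.85, interval 0.57 to 3.41). IFIT5 had 2 with 1 read pair at 0 m and 20 at 16 h (3.85, interval 1.21 to 9.23). These genes were low at 0 m, 30 m and 4 h and high at 16 h and 72 h.

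Some other interferon-induced genes did not share this course. IFIT3 could not be measured, since its 1 loop had 4 read pairs at 0 m and 4 at 16 h. IFI6 had a log2 change of −0.28 at 16 h (interval −1.18 to 0.64), IFI44 had −0.04 (−0.81 to 0.75) and IRF7 had 0.22 (−0.52 to 0.99). MX2 was lower (−1.02, interval −2.07 to −0.01). Over all 69 loops of any list at the promoters of the IFIT genes, RSAD2 and CMPK2, summed H3K27ac contact was 79.9, 116, 79.1, 296 and 356. The summed H3K4me3 contact of those loops was 72.5, 78.6, 130, 86.0 and 81.4, highest at 4 h, in the deepest table. Both sums hold the IFIT1 loop picked for its change and leave out IFI6, IFI44, IRF7 and MX2, so they are a description only.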
